A study of Mus musculus with 23 samples.

Results

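The 1000 strongest NR5A2 binding sites in chromatin classed as not accessible are described here, in mouse embryos at the 8-cell stage that carry or lack Nr5a2. They were taken from a deposited list of 16958 NR5A2-bound regions (mm10). From the 8424 autosomal regions that the authors class as bound but not accessible, the 1000 with the highest NR5A2 CUT&RUN value were kept, and the other 7424 serve for comparison. CUT&RUN, in which an antibody directs a nuclease to cut DNA around the bound factor, came from another study, per the file headers. ATAC-seq, which reads where a transposase can cut and tag open chromatin, gave the accessibility. Values are RPKM, read numbers scaled by the authors to sequencing depth and, for CUT&RUN, to region length.

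The maternal-zygotic (mz) knockout group, mz_NrKO, held 13 single embryos and its control group of heterozygotes, mz_NrHet, held 8, all analysed ex vivo at the 8-cell stage. Embryos of the inducible series were taken at the early 2-cell stage, at 30 h post hCG, and kept in culture for 45 h. There, 1 pool (iNrKO_plus_Tam_NrKO) received 750 nM 4-hydroxytamoxifen for the first 24 h and 1 pool (iNrKO_minus_Tam_Nrpp) received none. The sources used here do not name the Cre driver, and all treated embryos belong to the deletion pool, so drug and deletion cannot be told apart. The labels do not say whether heterozygotes carried maternal Nr5a2. The table gives 1 merged RPKM value per group and region, so variation among embryos is unknown. All intervals and tests below cover counting error only and compare merged libraries, not conditions. Fewer cells with a region open and less opening per cell cannot be told apart, and ATAC-seq gives no expression by which the embryonic stage could be checked.

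NR5A2, an orphan member of the nuclear receptor family, contacts DNA as a monomer, at a hexamer of the nuclear receptor type extended at its 5′ side. It is expressed in the early embryo and in embryonic stem cells, where it activates pluripotency genes such as Pou5f1, and later in liver, pancreas, intestine and ovary. Receptors of this family have been described as able to bind sites in compact chromatin, and strong binding without an open region is therefore of interest.

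The sequence at the binding site could be read for the few members that overlap a RefSeq promoter window (250 bases before to 50 bases after a start site, GRCm38.p6, the assembly of mm10). Windows were available for 985 of the members, and 4 of these (0.406%) overlapped one, against 56 of 7248 other regions not classed as accessible (0.773%) and 420 of 7970 accessible regions (5.27%). Of the 4 windows, 2 contained the position onto which the authors had recentred the CUT&RUN summit to match an Nr5a2 motif. Both are printed because they show what that position is, in lower case with every copy of the motif cores AAGGTCA and AAGGCCA, on either strand, in capitals.
Eif4e promoter, chr3:138525941-138526240, plus strand: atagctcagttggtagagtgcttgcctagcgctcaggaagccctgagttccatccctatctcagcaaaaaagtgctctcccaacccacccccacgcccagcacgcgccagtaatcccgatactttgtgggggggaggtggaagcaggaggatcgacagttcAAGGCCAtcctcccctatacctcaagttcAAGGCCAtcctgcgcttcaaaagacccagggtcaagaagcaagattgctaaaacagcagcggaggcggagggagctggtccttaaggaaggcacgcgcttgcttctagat
LOC115487798 promoter (a lncRNA gene), chr11:87441215-87441514, plus strand: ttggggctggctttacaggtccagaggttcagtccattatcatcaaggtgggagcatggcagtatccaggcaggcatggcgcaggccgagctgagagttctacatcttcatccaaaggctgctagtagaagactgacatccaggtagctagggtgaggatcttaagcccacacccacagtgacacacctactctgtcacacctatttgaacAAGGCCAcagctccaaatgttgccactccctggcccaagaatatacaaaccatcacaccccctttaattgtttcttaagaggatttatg

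In both windows a core began 1 base to the right of the recentred summit. The Eif4e window, at the gene of the cap-binding translation factor, held a second copy whose start lay 28 bases to the left of that summit. A core at a fixed offset was common at recentred summits inside a promoter window, in counts that do not leave out the 2 members above. On the plus strand it began 1 base to the right of the summit. On the minus strand its leftmost base in genome order lay 1 base to the left, so that this core covered the summit. Of such regions with a summit moved by the authors, 14 of 21 not accessible ones (66.7%) had a core so placed. Among accessible ones 49 of 94 had it (52.1%). Among regions with an unmoved summit a core was so placed in 0 of 6 and in 1 of 109 (0.917%). Of all 32851 promoter windows, 10.6% held either core anywhere, 4.72% AAGGTCA and 6.20% AAGGCCA. For comparison, the 25 bases around the recentred summit are given for these 2 members and for the 4 most strongly bound accessible promoters with a core so placed, read on the strand that carries it.
Eif4e (member, chr3:138526118-138526142, plus): atacctcaagttcAAGGCCAtcctg
LOC115487798 (member, chr11:87441413-87441437, plus): cacctatttgaacAAGGCCAcagct
Osbpl2 (accessible, chr2:180119082-180119106, plus): actagcctctcccAAGGTCActccc
1110020A21Rik (accessible, chr17:84957739-84957763, minus): aattggcAAGGTCAactatccatca
Mtrf1l (accessible, chr10:5824132-5824156, minus): ctatctcAAGGTCAcgcctaggcag
Msrb1 (accessible, chr17:24736380-24736404, minus): taagatgAAGGCCAaacctatgcta
Such a match describes the letters of the window and is no evidence that this copy is the bound one.

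For members without a printable sequence, a moved summit shows only that the authors matched a motif there, and the match could not be checked. The summit had been moved in 987 of the 1000 members (98.7%), against 6675 of the 7424 other regions not classed as accessible (89.9%) and 7205 of 8228 accessible regions (87.6%). Among moved summits the authors' recentred position lay close to the CUT&RUN summit in the members, at a median of 31 bp (quartiles 15 and 58), against 51 bp (21 and 93) in the other not accessible regions and 46 bp (20 and 83) in accessible regions. The 1000 most strongly bound autosomal accessible regions came closer to the members, with 959 summits moved (95.9%) by a median of 39 bp (19 and 65). Among the 1000 most weakly bound autosomal not accessible regions 658 summits (65.8%) had been moved, by a median of 96.5 bp. CUT&RUN strength, which chose the members, and the precision of the CUT&RUN summit come from the same reads, so these shares are descriptions and were not tested.

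**Figure D1:**
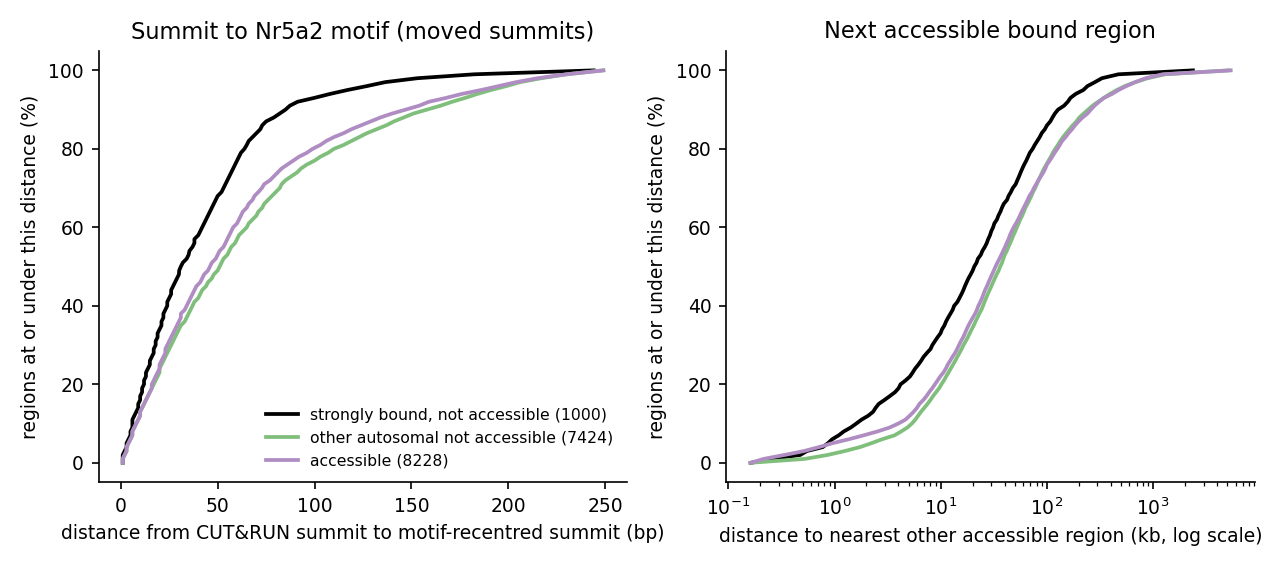
Cumulative share of regions (%, vertical axes) by distance in bp from the CUT&RUN summit to the authors' motif-recentred summit, moved summits only (left), and by distance in kb on a log axis to the nearest other accessible bound region (right). The line of the 1000 members lies left of both other classes for most of its length, with medians of 31 bp and 20.7 kb.

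CUT&RUN values of the members ran from 6.69 to 27.6 RPKM (median 8.31), against a median of 3.19 RPKM in the other autosomal not accessible regions and 5.00 RPKM in accessible regions. The strongest member lay inside Shcbp1l (27.6 RPKM), followed by regions 0.669 kb from Tomm5, the gene of a subunit of the mitochondrial import channel (23.5), near Sap130, which encodes a Sin3 corepressor subunit (20.7), and inside Prr11 (20.3). Regions near Nphp4 (18.7), inside Sfi1 (18.5), near Prm1, a protamine gene (18.1), near Kank4, inside Cdc42bpg (17.9), inside Rgs11 (17.8), near Ptges3 (17.8) and near Ankdd1a (17.7) completed the first 12. The last regions inside the threshold lay near Ctsl, near Grb2 and inside Nfatc3, each at 6.69 RPKM. The first outside it lay inside Tead4 and near Klf2, each at 6.68 RPKM, and inside Adat1 at 6.67 RPKM. The CUT&RUN values were whole reads divided by region length, and the median member held 72 reads in 285 bp.

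The levels of the members were as follows. The median member had 1.08 RPKM in mz knockouts and 1.76 RPKM in heterozygotes, and 1.19 RPKM in the treated and 2.12 RPKM in the untreated pool. Accessible regions had medians of 2.51, 4.11, 2.38 and 3.59 RPKM in the same order, and the other not accessible regions 0.717, 1.17, 0.851 and 1.31 RPKM. The members thus lay between both classes in each of the 4 columns. By mean RPKM over the 4 columns, 107 members (10.7%) reached the median of the accessible regions, 3.27 RPKM, and 312 (31.2%) reached their lower quartile, 2.23 RPKM. Of the other autosomal not accessible regions 194 (2.61%) reached that median. The authors' class was part of the rule and may rest on these same libraries, so these levels were not tested.

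**Figure D2:**
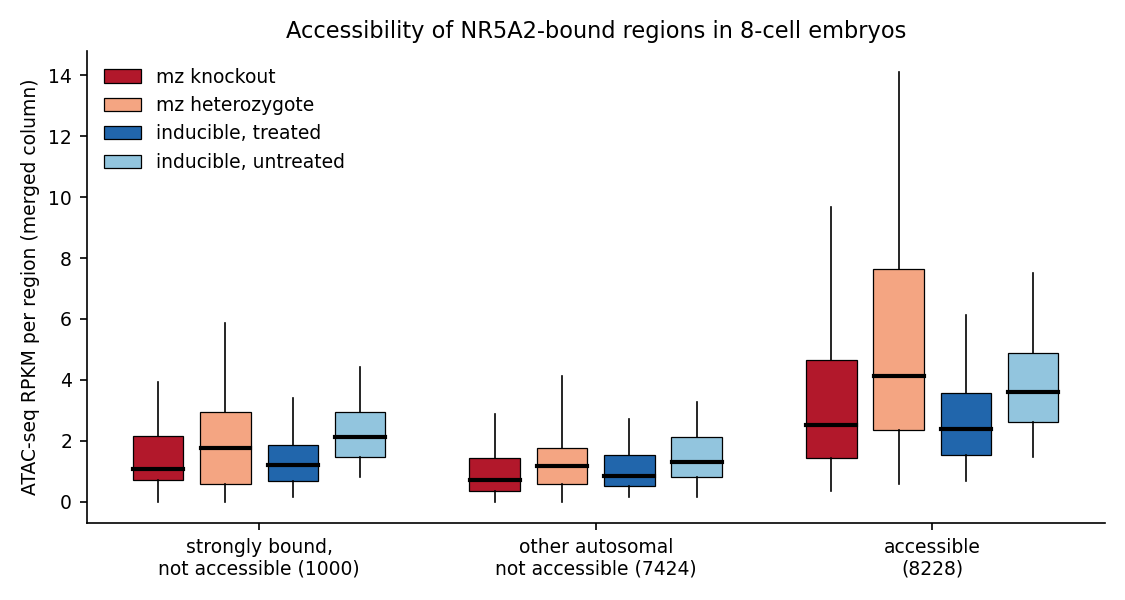
ATAC-seq RPKM per region (vertical axis) in the 4 merged columns for the 1000 members, the 7424 other autosomal not accessible regions and the 8228 accessible regions. Boxes span the quartiles, thick lines are medians and whiskers reach the 5th and 95th percentiles over regions, and the members lie between the other classes in every column.

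A single member stood far above the rest. The region inside Sfi1, which encodes a centrosomal protein (chr11:3161178-3161535), had 36.6 RPKM in mz knockouts, 41.1 RPKM in heterozygotes, 30.5 RPKM in the treated and 35.6 RPKM in the untreated pool. Its mean of 35.9 RPKM was followed by 6.01 RPKM for the next member, near Plekhf2. Its summit was not moved onto a motif, and how reads map there was not checked. The regions that followed lay inside Rab20 and near Plekhf2, Cxxc5, Eif2s2 and Rpp21, with means of 5.42 to 6.01 RPKM, all above the upper quartile of accessible regions (4.87 RPKM).

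The first comparison asked how accessibility at these sites differs in embryos without maternal and zygotic Nr5a2. Over the 1000 members the mean was 1.54 RPKM in mz knockouts and 2.25 RPKM in heterozygotes, a ratio of summed RPKM of 0.683 (exact 95% interval 0.654 to 0.713, from 4292 and 3838 reads). It was 0.749 (0.734 to 0.764) over the other autosomal not accessible regions, 0.650 (0.644 to 0.656) over accessible regions and 0.668 over all regions. The loss at the members was therefore close to the loss shared by all listed regions, at 1.02 times that ratio (0.978 to 1.07). Regions without NR5A2 are not in the table, so whether this shared loss goes beyond bound regions was not tested. In mz knockouts 636 members had a lower value than in heterozygotes (63.6%, against 64.3% of all regions), 346 a higher and 18 an equal one. The median log2 ratio, on the log2(RPKM + 1) scale that understates changes of low regions, was −0.32 in the members and −0.32 over all regions.

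The second comparison asked the same after deletion from the 2-cell stage. Here the mean over the members was 1.45 RPKM in the treated pool and 2.36 RPKM in the untreated pool, a ratio of 0.614 (0.597 to 0.630, from 8494 and 14433 reads). This was below the ratio of the accessible regions, 0.692 (0.687 to 0.697), of the other autosomal not accessible regions, 0.721 (0.713 to 0.730), and of the 1000 most strongly bound autosomal accessible regions, 0.673 (0.662 to 0.685), with no overlap of the counting intervals. Relative to all regions the members stood at 0.884. Over the weakest 1000 autosomal not accessible regions the ratio was 0.829 (0.797 to 0.863). The median log2 ratio of the members was −0.50, against −0.35 over all regions. A lower value in the treated pool was found at 816 members (81.6%, against 74.4% of all regions) and a higher one at 182. The lower ratio relative to accessible regions did not appear in the mz series, where the interval of the members lay at 0.654 to 0.713 and that of accessible regions at 0.644 to 0.656, and this difference between the series was not tested over the members. With 1 pool per arm there was no replicate check. Without the Sfi1 region the ratios were 0.679 for the mz embryos and 0.610 for the pools.

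**Figure D3:**
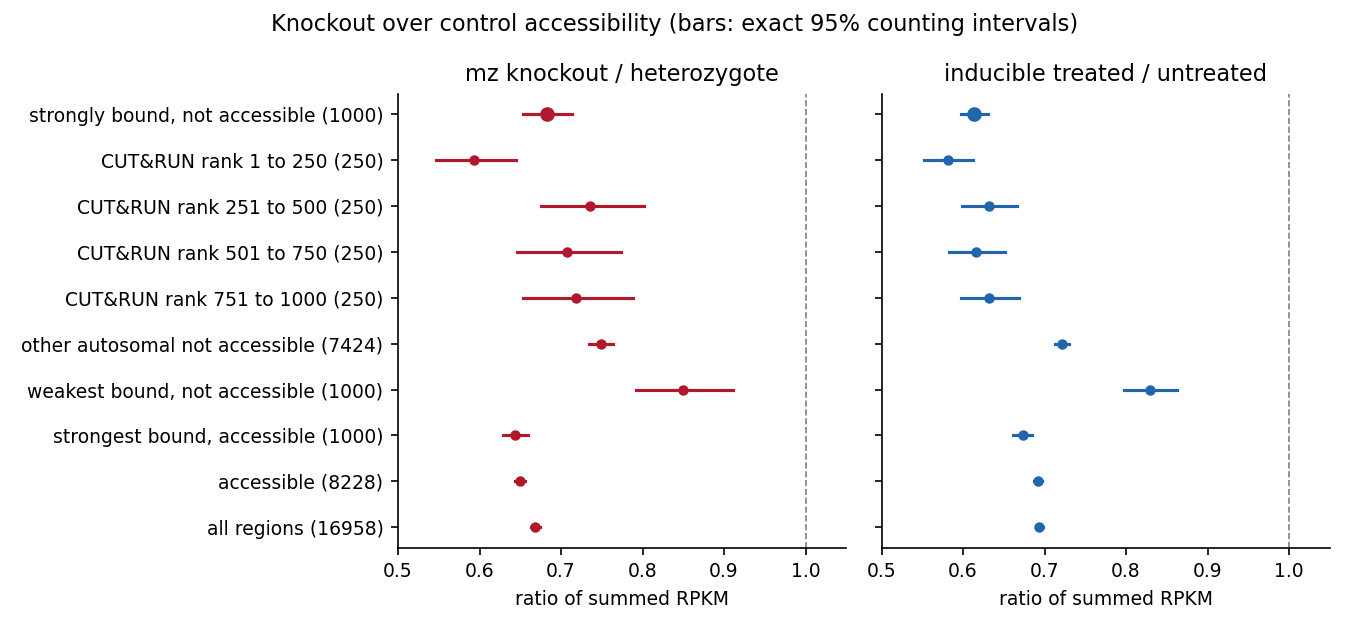
Ratio of summed RPKM, mz knockout over heterozygote (left) and treated over untreated pool (right), for the members, their 4 groups by CUT&RUN rank and the other classes of regions. Points are ratios and bars exact 95% intervals for counting error, and in the inducible series the members (0.614) lie below accessible regions (0.692).

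In the mz series the most strongly bound members had a lower ratio than the rest. In the 250 members with 9.93 RPKM of CUT&RUN signal or more, the mz ratio was 0.594 (0.546 to 0.645) and the inducible ratio 0.581 (0.552 to 0.612). The next 3 groups of 250 by CUT&RUN rank had mz ratios of 0.736 (0.675 to 0.802), 0.707 (0.646 to 0.774) and 0.718 (0.654 to 0.789), and inducible ratios of 0.631 (0.598 to 0.666), 0.616 (0.583 to 0.651) and 0.632 (0.598 to 0.668). The interval of the first 250 lay below those of the other groups in the mz series, and overlapped them in the inducible series. Without the Sfi1 region, which belongs to the first 250, their ratios were 0.574 and 0.566. Across single members the relation was weak, with a Spearman rho between CUT&RUN value and log2 ratio of −0.11 in the mz series and −0.08 in the inducible pools (n = 1000 regions that share libraries).

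The ratios by position were as follows. The 22 members within 1 kb of the start site of their nearest gene had a mz ratio of 0.519 (0.406 to 0.663), which 2 called regions, at Flt3l and Mylpf, decided: without them it was 0.662 (0.505 to 0.869), an alternative chosen after seeing the data. The mz ratio was 0.674 (0.626 to 0.727) for 304 members at 1 to 10 kb, 0.669 (0.619 to 0.724) for 354 at 10 to 50 kb and 0.853 (0.734 to 0.992) for 120 farther away. The inducible ratios of these 4 groups, all 22 members included, were 0.667 (0.560 to 0.792), 0.608, 0.616 and 0.582 (0.535 to 0.632), with overlapping intervals. Members inside a gene span had ratios of 0.649 (0.610 to 0.690) and 0.591 (0.569 to 0.614) in the mz and inducible comparisons, and members outside 0.719 (0.676 to 0.766) and 0.639 (0.614 to 0.664). The 13 members whose summit had not been moved had ratios of 0.827 (0.650 to 1.06) and 0.797 (0.685 to 0.925), and without the Sfi1 region 0.742 (0.504 to 1.10) and 0.729 (0.581 to 0.913). The ratios varied little with how open a member was in the control of the other series. In 4 groups of 250, low to high in the untreated pool, the mz ratio was 0.749, 0.667, 0.658 and 0.686, and in 4 such groups by the heterozygote value the inducible ratio was 0.572, 0.636, 0.619 and 0.617.

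The members lay nearer to genes and to other bound regions than the rest of the closed class, by medians that were not tested. A gene span covered 531 members (53.1%) and 4072 of the other not accessible regions (54.8%). Outside genes, the median distance to the nearest protein-coding gene was 6.19 kb for members and 12.4 kb for the others, and 34 members (3.40%) lay over 50 kb away, against 649 (8.74%). Where the nearest gene had a listed start site (800 members), the median distance to it was 13.8 kb, against 20.1 kb in the other not accessible regions and 18.7 kb in accessible regions. Within 1 kb of the start site lay 22 of these members (2.75%), 134 of 5917 other not accessible regions (2.26%) and 498 of 6552 accessible regions (7.60%). Another bound region lay within 1 kb of 124 members (12.4%) and of 456 others (6.14%). An accessible bound region lay within 10 kb of 332 members (33.2%), against 1462 of the others (19.7%) and 1820 of the accessible regions themselves (22.1%). The 1000 most strongly bound autosomal accessible regions lay between, with a median start-site distance of 15.5 kb, another bound region within 1 kb in 9.7% and an accessible one within 10 kb in 28.7%. Exons and introns could not be told, since the gene table gives gene spans only.

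Each region was tested by a two-sided exact binomial test on its recovered reads, and p-values were adjusted (Benjamini-Hochberg, 0.05) over all 16958 regions. In the mz comparison 11 members (1.10%) were called lower in knockouts, against 1.73% of all regions and 0.337% of the other autosomal not accessible regions. No member was called higher (0.0236% of all regions were), and at an unadjusted p under 0.05 there were 77 lower members (7.7%, against 11.9% of all regions) and 10 higher ones (1%, against 0.708%). In the inducible comparison 60 members (6%) were called lower in the treated pool, against 6.37% of all regions and 2.14% of the other autosomal not accessible regions. No member was called higher (0.0767% of all regions and 0.0808% of the other autosomal not accessible ones were), with 235 lower (23.5%, against 19.7% of all regions) and 4 higher (0.4%, against 0.879%) at an unadjusted p under 0.05. The shares of members called lower thus stayed near the background of all regions in both comparisons. With the median log2 ratio of all regions scaled to 0, 1 member was called lower in the mz comparison (0.307% of all regions) and 8 in the inducible one (1.17%). With the summed ratio scaled to 1 the counts were 0 (0.0826%) and 1 (0.46%). The median was taken on the log2(RPKM + 1) scale, which understates changes of low regions, so that scaling removes less of the shared loss. It left the summed ratios of the members at 0.853 (mz) and 0.782 (inducible), against 1.02 and 0.884 with the summed scaling. The called members were chosen from low counts, and regions with a high chance value in the control column are favoured.

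The largest called falls in the mz series are given first. A region 0.274 kb from Flt3l, the gene of a growth factor of blood progenitors and dendritic cells (chr7:45136764-45137275), had 1.79 RPKM in mz knockouts and 12.9 RPKM in heterozygotes, and 1.87 RPKM in the treated and 3.43 RPKM in the untreated pool. It passed in the mz series only (exact binomial test, adjusted p = 0.00337). A region 5.05 kb from Elf3, which encodes an epithelial ETS transcription factor (chr1:135248328-135248522), had 2.87 RPKM in mz knockouts and 12.9 RPKM in heterozygotes (exact binomial test, adjusted p = 0.0169). In the inducible series it had 1.19 RPKM in the treated and 3.10 RPKM in the untreated pool, without passing. At these loci both knockout values were below both control values.

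The region inside Mylpf, the gene of a fast skeletal muscle myosin light chain (chr7:127212338-127212771), was the only member called lower in both comparisons (70 of all regions were, 0.413%). It had 1.43 RPKM in mz knockouts and 10.6 RPKM in heterozygotes (4 and 18 reads, exact binomial test, adjusted p = 0.0119). It had 0.681 RPKM in the treated and 3.75 RPKM in the untreated pool (4 and 23 reads, exact binomial test, adjusted p = 0.0135). A region inside Mkrn1, an E3 ubiquitin ligase gene, had 2.15 RPKM in mz knockouts and 11.2 RPKM in heterozygotes, and 3.57 RPKM in the treated and 4.41 RPKM in the untreated pool, and was called in the mz series alone. Regions near AA467197 and inside Rcan1, the gene of a calcineurin inhibitor, each had 0.717 RPKM in mz knockouts and 7.64 RPKM in heterozygotes. A region 1.48 kb from Gldc had the same mz values and call, and ranked after them only by its lower CUT&RUN value. The first 2 were also lower in value in the treated pool, at 1.53 and 0.851 RPKM against 3.75 and 2.12 RPKM in the untreated pool, without a call there.

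In the inducible series the largest called fall among the members was inside Col8a2, a collagen VIII gene (chr4:126299245-126299535). It had 0.851 RPKM in the treated and 7.02 RPKM in the untreated pool (5 and 43 reads, exact binomial test, adjusted p = 5.83e-05). In the mz series this region was higher in value in knockouts, with 1.79 RPKM against 0.587 RPKM in heterozygotes, on 5 and 1 reads. The region inside Rab20, a small GTPase gene, had 2.04 RPKM in the treated and 7.51 RPKM in the untreated pool, while mz knockouts had 6.46 RPKM, against 7.64 RPKM in heterozygotes. A region 2.62 kb from Plekhm2, which encodes a lysosome adaptor for kinesin, had 1.02 RPKM in the treated and 5.71 RPKM in the untreated pool, with 2.51 RPKM in mz knockouts and 4.11 RPKM in heterozygotes. The inducible falls were thus accompanied by mz values that differed little or in the other direction at some of these sites.

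Regions inside Afmid, an enzyme gene of tryptophan breakdown, and inside Ipo5, a nuclear import receptor gene, had 0.681 RPKM each in the treated pool, against 5.06 and 4.90 RPKM in the untreated pool. In the mz series they had 3.59 and 1.43 RPKM in knockouts, and 5.29 and 4.11 RPKM in heterozygotes. A region inside Pdxk, the pyridoxal kinase gene, which is 1 of the 13 members with an unmoved summit, had 1.53 RPKM in the treated and 5.55 RPKM in the untreated pool, with 2.87 RPKM in mz knockouts and 4.11 RPKM in heterozygotes. The strongest member of all, inside Shcbp1l, was also among the calls, with 0.510 RPKM in the treated and 3.59 RPKM in the untreated pool (exact binomial test, adjusted p = 0.00884). In the mz series it had 0.717 RPKM in knockouts and 0.587 RPKM in heterozygotes, on 2 and 1 reads, a depth at which a difference was not detectable. Of the calls named in these paragraphs, those at Flt3l, Col8a2, Rab20, Plekhm2, Afmid and Ipo5 passed also with the median of all regions scaled to 0, and those at Elf3, Mylpf, Mkrn1, AA467197, Rcan1, Gldc, Pdxk and Shcbp1l did not. With the summed ratio of all regions scaled to 1, only the Col8a2 call passed.

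**Figure D4:**
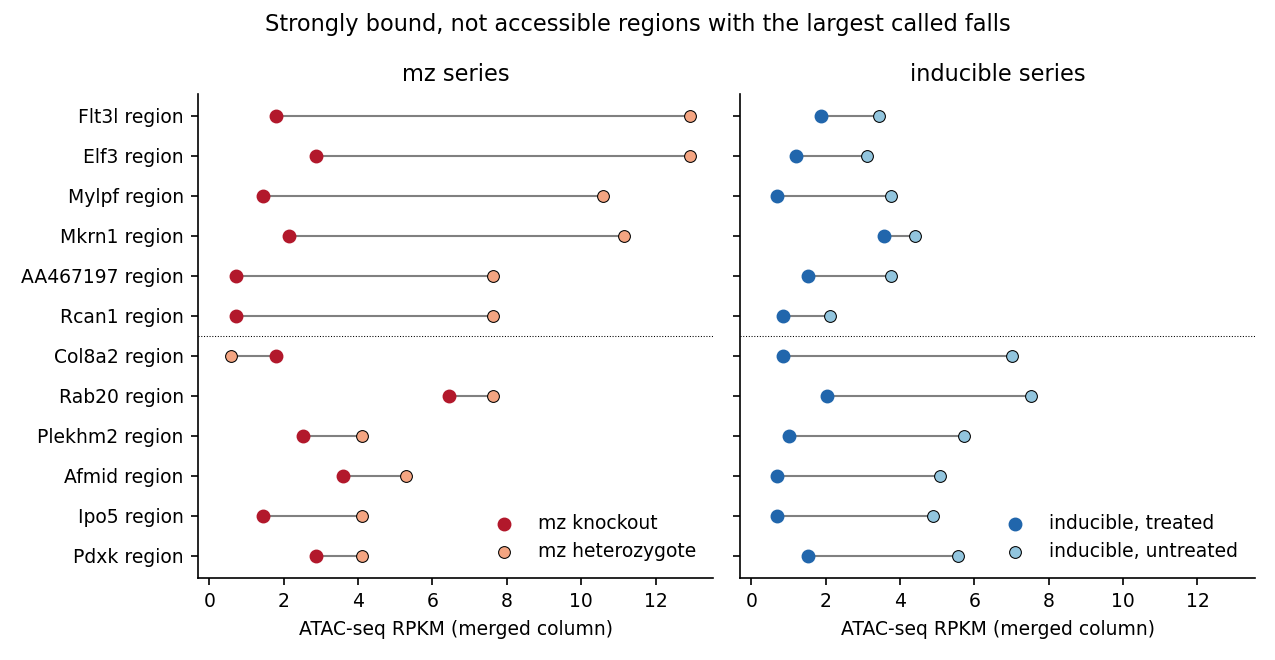
ATAC-seq RPKM of the 6 members with the largest called fall in the mz series (above the dotted line, ties taken by CUT&RUN rank, so that Gldc, level with AA467197 and Rcan1, is not drawn) and the 6 with the largest called fall in the inducible series (below it), named by nearest gene, in the mz (left) and inducible columns (right). Each line joins the value of the knockout column to that of its control, and the regions above the line are lower in the knockout column of both series, while Col8a2 is higher in mz knockouts.

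The series share no libraries, so members called in one could be read in the other. The 11 members called in the mz series were all lower in value in the treated pool, as were 81.6% of all members. Their inducible ratio was 0.452 (0.349 to 0.580), against 0.614 over all members. Of the 60 members called in the inducible series, 43 were lower in value in mz knockouts, 13 higher and 4 equal. Of all members 63.6% were lower in mz knockouts. The 60 had a mz ratio of 0.479 (0.399 to 0.576), against 0.683 over all members. Over all 1000 members, 528 were lower in the knockout column of both series (52.8%, against 50.5% of all regions), 73 were higher in both, 106 were lower in mz knockouts and higher in the treated pool, and 273 the reverse. A test of the difference between the 2 ratios of a region (exact, noncentral hypergeometric, adjusted over all regions) called 0 members and 3 of all regions (0.0177%).

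**Figure D5:**
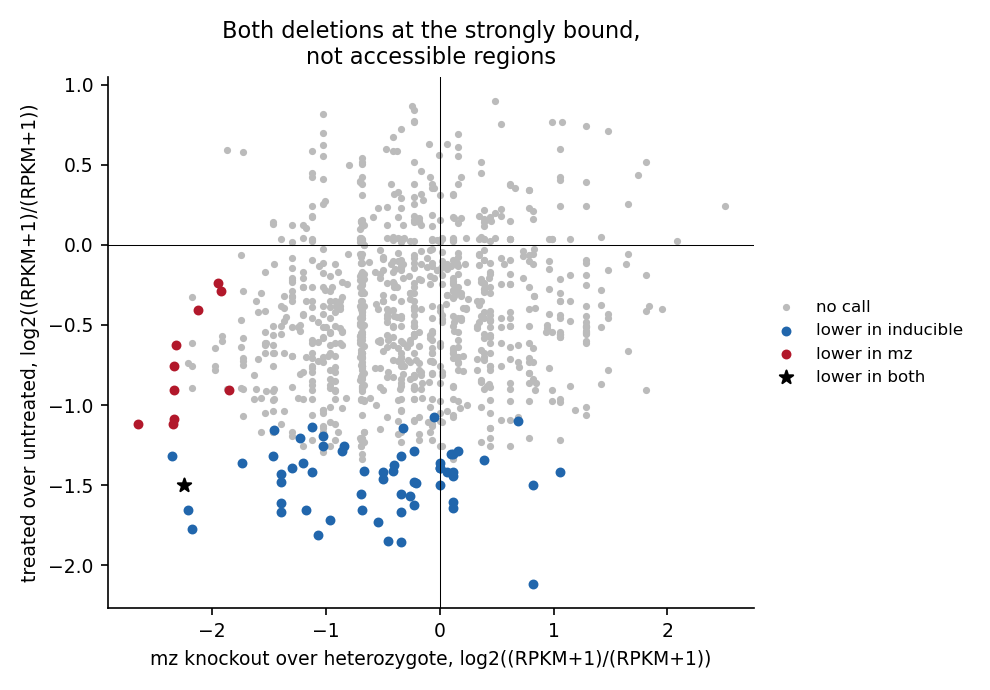
Log2 ratio of mz knockout over heterozygote (horizontal axis) and of treated over untreated pool (vertical axis) on the log2(RPKM + 1) scale, 1 point per member. Blue points are called lower in the inducible series, red points in the mz series and the star, the Mylpf region, in both, and most points lie below the horizontal line, with 816 of 1000 lower in the treated pool.

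By the authors' deposited table, whose classes rest on their own ratios of both series, 477 members were classed as losing accessibility (47.7%, against 41.5% of all regions), 351 as unchanged (35.1%, against 41.6%) and 172 as gaining (17.2%, against 16.9% of all regions). Of the other autosomal not accessible regions 2612 (35.2%) were classed as losing and 2012 (27.1%) as gaining in the authors' deposited table. The gaining class also held members called lower in the inducible series, such as the Col8a2 region. Many of these classes rest on few reads. The authors' ratios add 0.01 to each value, so 1 read in mz knockouts over 0 in heterozygotes gives a high ratio. Examples classed as gaining are the regions inside Prr11 (1 and 0 reads) and near Kank4 (3 and 0 reads). Another, near Cldn7 (3 and 0 reads), was called lower in the inducible series. How many of the gaining members arose in this way was not counted. In mz knockouts the median member had 3 reads, as in heterozygotes, and 80 and 112 members had none. In the treated and the untreated pool the medians were 7 and 13 reads, and 21 and 4 members had none. A count of 0 allows up to 1.08 RPKM in mz knockouts, 1.76 RPKM in heterozygotes, 0.510 RPKM in the treated and 0.490 RPKM in the untreated pool.

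Genes of the early lineages were looked up by lists of nearest genes within 50 kb. Members were 1000 of all 16958 regions, and the shares of members per list were not tested against this. The pluripotency list of 16 genes had 5 members, near Klf2, Klf4, Sall4 and Tfcp2l1, of 56 bound regions in all (8.93%). These 5 had a mz ratio of 0.265 (0.127 to 0.523) and an inducible ratio of 0.384 (0.253 to 0.571), with lower values in mz knockouts at 4 and in the treated pool at 5. Their median log2 ratios were −1.40 and −0.95, against −0.32 and −0.50 over all members and −0.32 and −0.35 over all regions. Of them 0 were called in the mz series and 1 in the inducible series. That region lay 1.18 kb from Klf4, the gene of a reprogramming factor (chr4:55525696-55525959). It had 0.359 RPKM in mz knockouts and 5.29 RPKM in heterozygotes (exact binomial test, adjusted p = 0.0538), and 0.510 RPKM in the treated and 3.75 RPKM in the untreated pool (exact binomial test, adjusted p = 0.00611), a call lost with the median scaling.

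A second region, 45.2 kb from Klf4, had 0.717 RPKM in mz knockouts and 4.11 RPKM in heterozygotes, and 2.04 RPKM in the treated and 4.90 RPKM in the untreated pool. The region 22.1 kb from Klf2, a related Krüppel-like factor gene, had 0.717 RPKM in mz knockouts and 3.52 RPKM in heterozygotes, and 0.510 RPKM in the treated and 2.29 RPKM in the untreated pool. The region inside Sall4, a zinc finger factor gene, had 2.15 RPKM in mz knockouts and 4.70 RPKM in heterozygotes, and 2.21 RPKM in the treated and 2.77 RPKM in the untreated pool. None of these 3 was called in either series, although every knockout value was below its control. The fifth member, inside Tfcp2l1, a pluripotency factor gene, is named to complete the list, after its values were seen. It had 0.717 RPKM in mz knockouts and 0 reads in heterozygotes, and 0.681 RPKM in the treated and 1.8 RPKM in the untreated pool.

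The trophectoderm list, genes of the outer lineage, had 4 members of 23 bound regions (17.4%, with 1000 members among all 16958 regions). Their mz ratio was 0.509 (0.287 to 0.895) and their inducible ratio 0.512 (0.314 to 0.819), and all 4 had lower values in the treated pool, against 2 lower and 2 higher in mz knockouts. Besides the Elf3 region above, called in the mz series, a neighbour 7.55 kb from Elf3 had 1.43 RPKM in mz knockouts and 3.52 RPKM in heterozygotes, and 0.170 RPKM in the treated and 1.63 RPKM in the untreated pool. A strongly bound region 1.19 kb from Tead4, which encodes the Hippo pathway factor needed for this lineage (16.9 RPKM of CUT&RUN signal), went the other way in the mz series. It had 3.95 RPKM in mz knockouts and 0.587 RPKM in heterozygotes, on 11 and 1 reads, and 1.87 RPKM in the treated and 2.12 RPKM in the untreated pool, without a call. The Hand1 region had 0.717 RPKM in mz knockouts and 0.587 RPKM in heterozygotes, and 1.53 RPKM in the treated and 2.45 RPKM in the untreated pool.

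Among 26 nuclear receptor and cofactor genes, 2 had a member, of 49 bound regions (4.08%). The region inside Ncoa3, a steroid receptor coactivator gene, had 3.59 RPKM in mz knockouts and 6.46 RPKM in heterozygotes, and 1.87 RPKM in the treated and 2.94 RPKM in the untreated pool. The region near Nr1h2, the gene of the liver X receptor beta, had 1.79 RPKM in mz knockouts and 0.587 RPKM in heterozygotes, and 3.74 RPKM in the treated and 3.10 RPKM in the untreated pool. Neither was called. A single member of 11 bound regions (9.09%) fell to the blood and immune list, inside Pax5, a B cell factor gene. No member had a gene of 7 other lists as its nearest gene within 50 kb, and these lists had 8 to 29 bound regions each: primitive endoderm, 2-cell genome activation, Hippo and polarity, oocyte and maternal effect, liver, pancreas and steroid targets of NR5A2, neural development, and imprinted genes. Members nearer to another gene were not counted, and only 11 of 12 2-cell genes and 10 of 13 imprinted genes were in the annotation.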

How the data were processed

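ATAC-seq libraries of 23 samples were grouped by their titles. Per the submitters' processing notes cutadapt, Bowtie2, MACS2 and mm10 were used, with no versions or settings. RPKM values were computed by the authors for each group as a whole, per the file headers. ATAC-seq RPKM values were whole multiples of 1 step per column (0.359 RPKM per read in mz knockouts, 0.587 in heterozygotes, 0.170 in the treated and 0.163 in the untreated pool), so reads were recovered by division. They totalled 109296, 99826, 190091 and 285671 over all regions in that order. The CUT&RUN RPKM deposited by the authors gave whole reads only after multiplication by region length, so ranking by RPKM and by reads differ. The ratio columns deposited by the authors equalled (knockout + 0.01)/(control + 0.01). Summit positions (other columns) are the authors' own.

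For sets of regions, RPKM values were summed per column and divided, with exact 95% intervals (Clopper-Pearson) given the total reads. Regions were tested by exact binomial tests with scipy 1.17.1 in Python 3.11.15. The procedure was also run on simulated reads, which cannot show how embryos or pools vary. Nearest protein-coding genes came from RefSeq (GRCm38.p6). Start sites were listed for 17492 of 21900 such genes, and distances to start sites use these only. Named regions were chosen by a rule: the 12 strongest members, those around the threshold, the 6 largest called falls and rises per comparison (ties by CUT&RUN rank), members called in both, the 6 highest levels, up to 4 per gene list, and promoter members. The members and gene lists were chosen with earlier results of these data known. Alternatives were other scalings, a read filter, list sizes, isolated regions, removal of the highest members and other pseudocounts.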

Additional observations from a re-analysis of the deposited data

How the results depend on the processing

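The ratios of sums of the members stayed below 1 with their intervals in both series under every list size, filter and exclusion tried (mz 0.659 to 0.684, inducible 0.593 to 0.630), including 1000 members ranked by CUT&RUN reads not divided by length, chosen after seeing the data. With the ratio of all regions set to 1, the mz ratio of the members was 1.02 (0.978 to 1.07), the reverse direction, and the inducible ratio 0.884. The median log2 ratios were then 0.26 (mz) and 0.029 (inducible). This shift came from sums of RPKM, while the medians were on the log2(RPKM + 1) scale that understates changes of low regions. The change of sign mixes both scales and cannot be read as a reversal at the members. With the median of all regions set to 0, shifts of −0.32 and −0.35, the median log2 ratios of the members were 0.00 and −0.15. Members called lower fell to 1 (Flt3l) and 8 with that median scaling, and to 0 and 1 (Col8a2) with the summed scaling. Both Mylpf calls were lost under either scaling. With at least 10 reads the mz median was −0.40 and 1 member, near Commd7, was called higher (4.66 RPKM in mz knockouts and 0 reads in heterozygotes), and was looked at after its values were seen. The 2000 strongest regions gave 17 mz and 104 inducible calls lower, 1 inducible call higher, near BC052040, and an inducible median of −0.44, and the 500 strongest 33 inducible calls. Pseudocounts of 0.5 and 0.01 RPKM gave medians of −0.37 and −0.70 in the mz and −0.61 and −0.81 in the inducible series. Within 5 kb of a start site lay 189 members in place of 22. No paired analysis was possible because the table holds 1 merged value per group, and for the same reason no embryo could be left out. The median of 3 reads per member in the mz columns limits single-region statements there.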

Other observations

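Members were spread thinly over genes. The 966 members within 50 kb of a gene belonged to 866 nearest genes, of which 780 had 1 member, 75 had 2 and 11 had 3 or more. The largest groups were 4 members each at Fgr, a Src family kinase gene (over 31.6 kb), at Rab40c (25.5 kb, all inside the gene span) and at Tsacc (20.8 kb). The Fgr group had a mz ratio of 0.611 (0.293 to 1.27) and an inducible ratio of 0.559 (0.364 to 0.845). The Rab40c group had ratios of 1.36 (0.591 to 3.38) and 0.741 (0.456 to 1.19), and the Tsacc group 0.494 (0.245 to 0.984) and 0.747 (0.493 to 1.12). By chromosome, members made up between 5.42% (chromosome 14) and 16.5% (chromosome 11, 134 members) of the not accessible regions. Their mz ratio ran from 0.536 on chromosome 9 to 0.920 on chromosome 10, and their inducible ratio from 0.550 on chromosome 15 to 0.794 on chromosome 13.

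Among the inducible calls, 3 further regions were picked after their values were seen, for the known roles of the nearest genes. A region inside Lgr5, the R-spondin receptor gene of intestinal stem cells, had 0 reads in the treated and 2.29 RPKM in the untreated pool, while mz knockouts had 0.717 RPKM, against 2.35 RPKM in heterozygotes. A region inside Nrip1, a nuclear receptor corepressor gene, had 0.340 RPKM in the treated and 3.10 RPKM in the untreated pool, while mz knockouts had 0.717 RPKM, against 3.52 RPKM in heterozygotes. A region 13.5 kb from Pklr, the liver and red cell pyruvate kinase gene, had 0.340 RPKM in the treated and 3.59 RPKM in the untreated pool, while mz knockouts had 0 reads, against 3.52 RPKM in heterozygotes. With the median of all regions scaled to 0 the Lgr5 and Pklr calls passed and the Nrip1 call did not. With the summed ratio of all regions scaled to 1, none of these 3 calls passed. Of the members at promoter windows, the Eif4e region had 3.59 RPKM in mz knockouts and 2.35 RPKM in heterozygotes, and 4.08 RPKM in the treated and 3.59 RPKM in the untreated pool. The Ptdss2 region had 3.59 RPKM in mz knockouts and 5.29 RPKM in heterozygotes, and 2.04 RPKM in the treated and 3.59 RPKM in the untreated pool. The region at the LOC115487798 window, inside the Tex14 gene span, had 3.23 RPKM in mz knockouts and 2.94 RPKM in heterozygotes, and 1.19 RPKM in the treated and 4.41 RPKM in the untreated pool (exact binomial test, adjusted p = 0.0238), a call lost with the median of all regions scaled to 0. The fourth, inside Ankrd11, had 0.359 RPKM in mz knockouts and 0.587 RPKM in heterozygotes, and 1.19 RPKM in the treated and 1.8 RPKM in the untreated pool.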
